A study of Mus musculus with 4 samples.

Results

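The genes described here are 42 enzymes and regulators of the cell's defence against oxidants and foreign compounds, taken by gene symbol as the response that might be looked for to a flavonoid. All 42 were found among the 55401 genes counted, and 40 of them had enough reads to be tested. RNA was taken from the semimembranosus, one of the hamstrings. The C57BL/6 mice were 8 weeks old, and a ligature tied over a 30-gauge needle had narrowed their left external iliac vein (iliac vein stenosis, IVS). In the IVS_diosmin group (2 libraries) stenosis was combined with daily gavage of 40 mg/kg diosmin, a flavonoid glycoside prescribed for venous disease. The IVS group (2 libraries) carried the same stenosis and received saline by the same route. Every library came from an operated mouse, so no level here can be set against an unoperated muscle, and the labels do not say how many animals gave the 4 libraries or for how many days diosmin was given. The p-values therefore measure the spread between these libraries, which may be technical.

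NRF2 (gene Nfe2l2) is a transcription factor that KEAP1 binds and sends for degradation. Oxidants and many electrophilic plant compounds modify KEAP1, after which NRF2 accumulates, pairs with a small MAF protein and binds antioxidant response elements beside genes for glutathione synthesis, thioredoxin recycling, quinone reduction and haem breakdown. The aryl hydrocarbon receptor (AHR) is a second sensor, which binds flat aromatic ligands, flavonoids among them, and switches on cytochrome P450 genes such as Cyp1a1 and its own repressors. Skeletal muscle makes superoxide in its mitochondria and at membrane oxidases, and clears it through superoxide dismutases followed by catalase, glutathione peroxidases and peroxiredoxins.

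No member rose with diosmin, and 1 of the 40 tested members fell, Cyp2e1 (edgeR quasi-likelihood test, adjusted p under 0.05 over all genes tested). Over all 13533 genes tested, 1.17% were called higher and 1.78% lower, or 2.96% in either direction, beside 2.5% of the tested members. At an unadjusted p under 0.05, 2 members were higher (Gclc and Cat), where 7.91% of all genes were, and 7 were lower (Cyp2e1, Gsta4, Gstm2, Prdx5, Gpx4, Prdx1 and Gstp1), where 8.91% of all genes were. Together these made up 22.5% of the tested members and 16.8% of all genes tested. DESeq2 also called 0 members higher and 1 lower, while the edgeR fit without robust estimation and the fit with a replicate block called 0 in either direction (Cyp2e1 had an adjusted p of 0.0602 and 0.110 in them). The members had a median log2 fold change of -0.24, against 0.01 for all genes tested, with values higher with diosmin in 15 (50.5% of all genes tested) and lower in 25 (49.5% of all genes tested). Both diosmin libraries lay above both IVS libraries in 10 members and below them in 15, where 23.4% and 24.1% of all genes tested did so. The plot of fold changes gives every tested member with its interval.

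**Figure D1:**
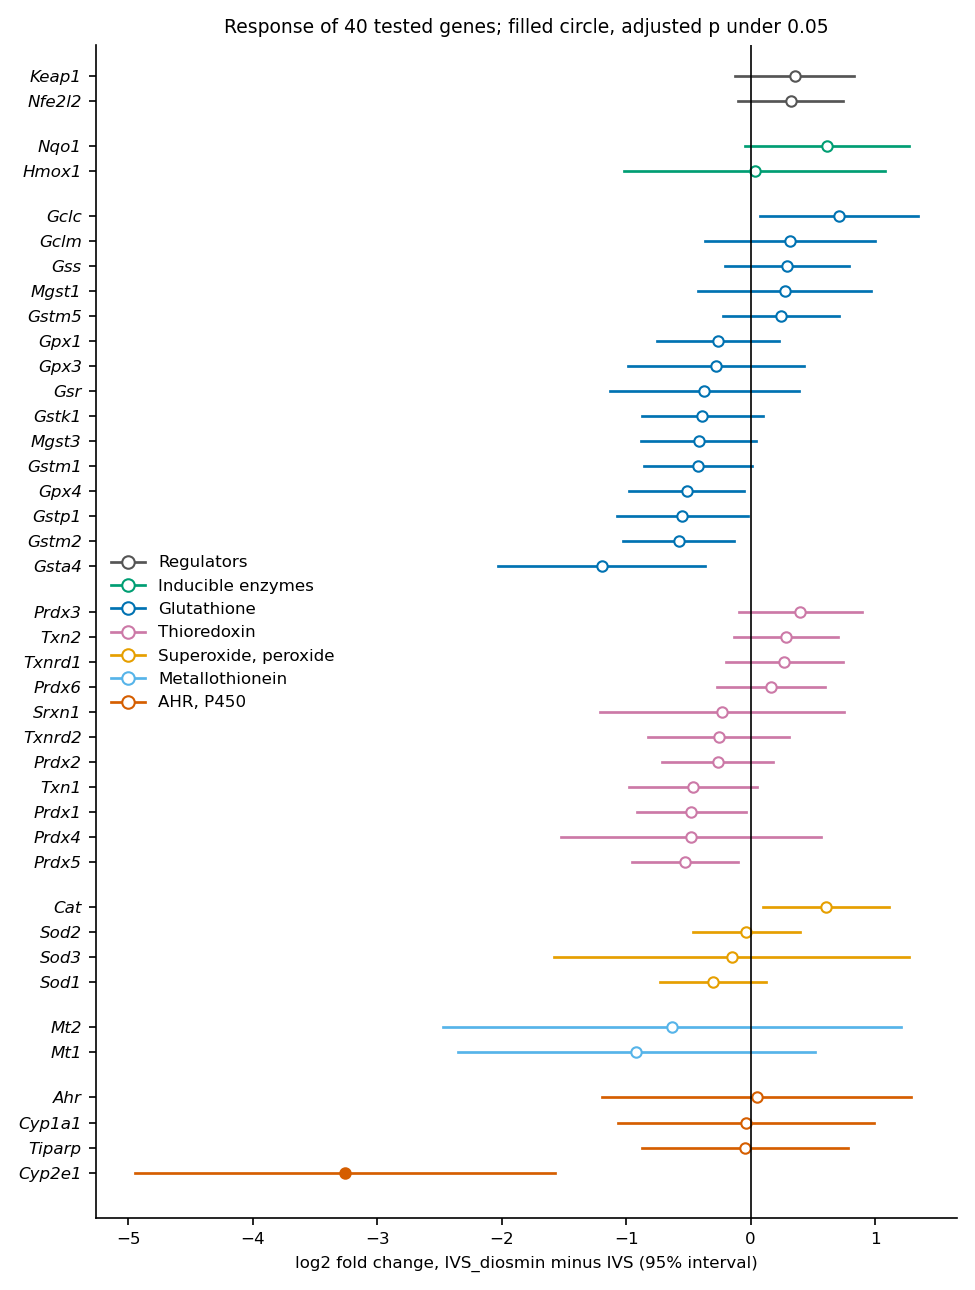
Log2 fold change of IVS_diosmin minus IVS for the 40 tested genes, with 95% intervals from the edgeR fit, ordered within each enzyme system; filled circles passed an adjusted p of 0.05. Cyp2e1 is the only filled circle, at -3.26, and most other intervals cross 0.

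The intervals set what these 4 libraries could show. In 24 of the 40 members the 95% interval of the log2 fold change lay within -1 and 1, so that a doubling or a halving fell outside it. In 7 members the interval reached 1 or more, and in 13 it reached -1 or less. A member that missed the threshold is not shown to be unchanged.

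Levels per kilobase of exon give a rough order of the members in this muscle. The length is the union of all annotated exons, which can exceed the transcript expressed, so the order depends on the annotation. Sod2 has 10008 bases of exon, with a longest transcript of 5861, and Gpx4 has 1724, with 995. By this measure the highest member was Gpx3, the secreted glutathione peroxidase, at a mean of 193 CPM per kilobase over the 4 libraries. CPM are counts scaled to the TMM-normalised library size. Gpx4, which reduces lipid peroxides in membranes, followed at 154. Mgst3, a microsomal glutathione transferase, had 79.0 and Gstm1, a cytosolic mu-class transferase, 58.5 CPM per kilobase. In the thioredoxin system Prdx5, a peroxiredoxin of mitochondria, peroxisomes and cytosol, led with 36.0, and Prdx3, the mitochondrial peroxiredoxin, followed with 30.9 CPM per kilobase. Sod1, the copper-zinc superoxide dismutase of the cytosol, had 30.4, catalase (Cat) 10.4 and Sod2, the manganese dismutase of mitochondria, 10.1 CPM per kilobase. The AHR and cytochrome P450 members were low, with none of them over 2.45 CPM per kilobase (Tiparp), and Gsta3, an alpha-class transferase, was at the limit of detection, with 1 count in IVS replicate 1 and 0 in the other libraries. A level corresponding to 3 counts would be 0.172 to 0.244 CPM across the libraries.

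**Figure D2:**
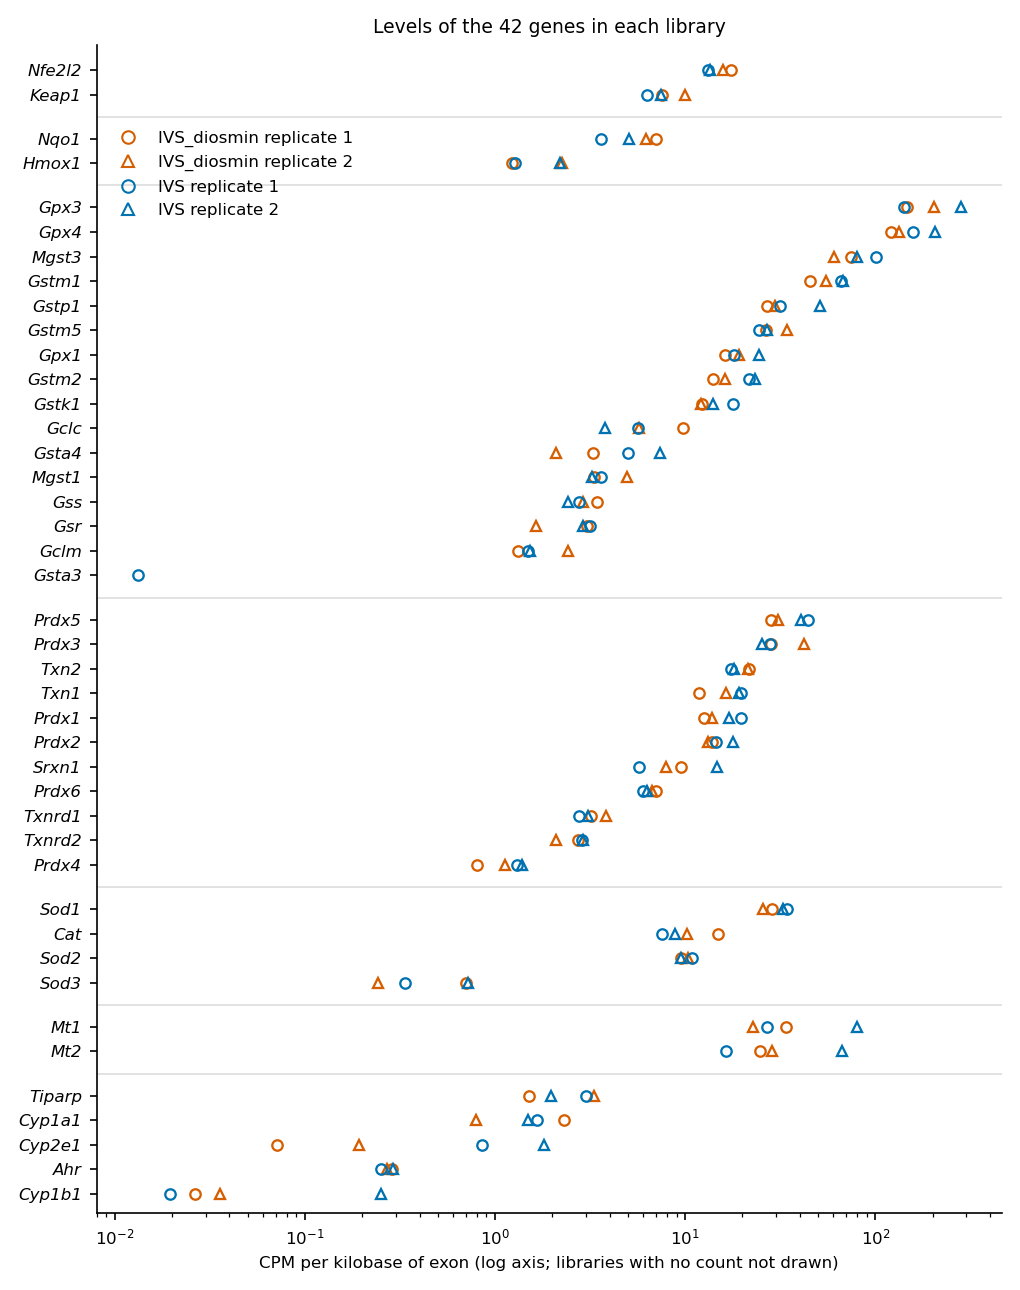
Level of each of the 42 genes in each library as TMM-normalised CPM per kilobase of exon, on a log axis, grouped by system from regulators at the top to the AHR and cytochrome P450 genes at the bottom. Gpx3 and Gpx4 sit highest, and Cyp2e1 shows both IVS_diosmin libraries to the left of both IVS libraries.

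The regulators were slightly higher in both diosmin libraries without passing the test. Nfe2l2 had 66.2 and 60.2 CPM in IVS_diosmin replicates 1 and 2, against 49.7 and 51.4 CPM in IVS replicates 1 and 2. Its groups did not overlap, and the log2 fold change was 0.32 ± 0.19 (SE, 95% interval -0.10 to 0.74, adjusted p = 0.451). Keap1, its inhibitor, had 35.5 and 46.6 CPM with diosmin, against 29.5 and 34.9 CPM in IVS (log2 0.35 ± 0.22, adjusted p = 0.463). Activity of NRF2 is set largely by the stability of the protein, which counts of RNA do not measure.

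Of the enzymes used as readouts of NRF2, those with the clearest lean were Nqo1 and Gclc, and neither passed. Nqo1, which reduces quinones, had 10.9 and 9.65 CPM with diosmin, against 5.60 and 7.88 CPM in IVS. Both diosmin libraries were above both IVS libraries (log2 0.61 ± 0.30, 95% interval -0.05 to 1.27, adjusted p = 0.339). Gclc, the catalytic subunit of the enzyme that limits glutathione synthesis, had 36.7 and 21.6 CPM with diosmin, against 21.2 and 14.2 CPM in IVS. Its lowest diosmin library stood just above its highest IVS library (log2 0.71 ± 0.29, adjusted p = 0.234). Gclm, the regulatory subunit of the same enzyme, had 8.25 and 15.3 CPM with diosmin, against 9.38 and 9.59 CPM in IVS, so its diosmin libraries lay on either side of the IVS libraries (log2 0.31, adjusted p = 0.688). Hmox1, the inducible haem oxygenase, was at 2.16 and 3.96 CPM with diosmin and at 2.23 and 3.82 CPM in IVS. Its groups overlapped almost completely, with a log2 fold change of 0.03 and an interval of -1.02 to 1.08. Srxn1, the sulfiredoxin that repairs overoxidised peroxiredoxins, had 26.7 and 22.2 CPM with diosmin, inside the 16.1 and 41.4 CPM of the IVS libraries (log2 -0.23, adjusted p = 0.851). Txnrd1, the cytosolic thioredoxin reductase, had 22.7 and 27.0 CPM with diosmin, against 19.6 and 21.7 CPM in IVS (log2 0.27, adjusted p = 0.593). Slc7a11, the cystine transporter and a standard NRF2 target, had too few reads to test, with 0.154 and 0 CPM with diosmin and 0.0572 and 0 CPM in IVS.

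**Figure D3:**
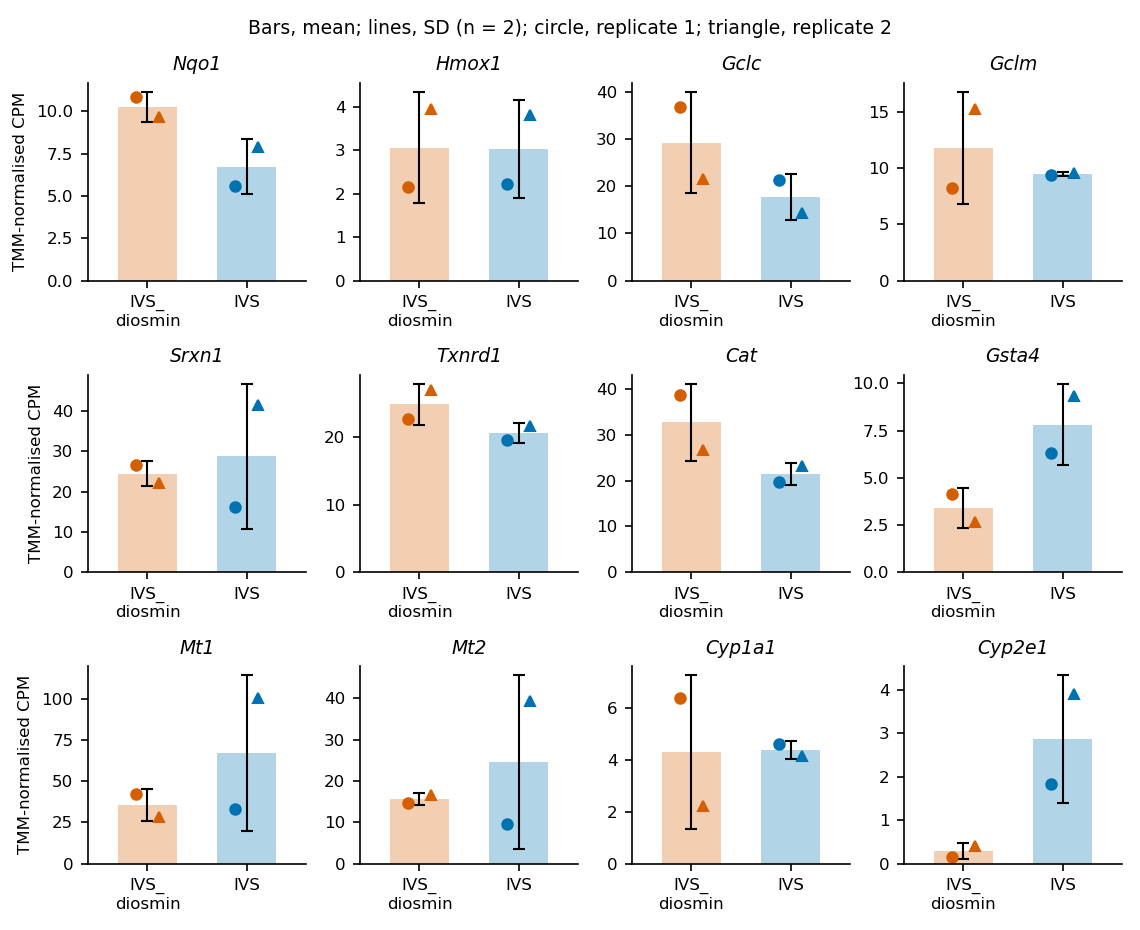
TMM-normalised CPM of 12 genes in each library (circle, replicate 1; triangle, replicate 2), with the group mean as a bar and the SD as a line (n = 2), IVS_diosmin on the left of each panel. Nqo1, Gclc and Cat have both diosmin libraries above both IVS libraries, Gsta4 and Cyp2e1 have them below, and Mt1, Mt2 and Srxn1 are highest in IVS replicate 2.

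To show which members carry the letters that NRF2 binds close to their start, the RefSeq promoter windows (GRCm38.p6, 250 bases before to 50 bases after the annotated start) were searched on both strands for the core of the antioxidant response element, TGACNNNGC. Windows were given for 35 members, of which 10 held the core (28.6%), against 14% of the 27025 genes with a window. The matches are printed with up to 20 bases on each side, on the strand that carries the core, with the core in capitals:
Gclm: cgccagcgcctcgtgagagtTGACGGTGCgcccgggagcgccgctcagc
Gstm5: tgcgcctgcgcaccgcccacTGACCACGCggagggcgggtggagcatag
Mgst1: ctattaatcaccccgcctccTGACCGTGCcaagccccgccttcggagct
Nfe2l2: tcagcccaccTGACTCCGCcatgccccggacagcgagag
Prdx1: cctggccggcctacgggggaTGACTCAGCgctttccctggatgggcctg
Sod1: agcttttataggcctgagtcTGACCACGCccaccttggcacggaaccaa
Srxn1: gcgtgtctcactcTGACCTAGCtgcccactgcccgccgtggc
Txnrd1: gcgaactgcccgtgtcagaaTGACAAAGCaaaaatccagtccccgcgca

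The other 2 were Mt2 and Gsta3. Prdx1 and Mt2 carried the same 9 letters (TGACTCAGC, in Prdx1 on the strand opposite to the gene), and so did Gstm5 and Sod1 (TGACCACGC). The Gclm window lies at chr3:122245403-122245451, the Prdx1 window at chr4:116685446-116685494 and the Txnrd1 window at chr10:82859094-82859142, all printed from the minus strand. Among the 9 tested members with a core, 5 had higher and 4 lower values with diosmin, and their log2 fold changes ran between -0.63 (Mt2) and 0.32 (Nfe2l2) with a median of 0.25. Among the 24 tested members whose window held no core, 6 had higher and 18 lower values, with a median of -0.27. Ahr, Gclc, Gsr, Gsta4, Hmox1, Prdx6 and Sod3 had no window given, were not searched and stand in neither set. None of the members with a core passed the test, and the difference between the sets was not tested. Elements farther from the start lie outside these windows, and a match is a description of letters only.

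No gene of the glutathione system passed the test. Of the 4 genes that make or recycle glutathione (Gclc, Gclm, Gss and Gsr), 3 had higher values with diosmin, while 6 of the 8 tested glutathione transferases had lower values, with both diosmin libraries below both IVS libraries in each of those 6. Over all genes tested, 49.5% had lower values and 24.1% were lower without overlap. The difference between the 2 sets was not tested. Gss, which joins glycine to complete glutathione, had 20.3 and 17.1 CPM with diosmin, against 16.2 and 14.2 CPM in IVS. Gsr, which reduces oxidised glutathione, had 8.40 and 4.51 CPM with diosmin, against 8.69 and 7.96 CPM in IVS.

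Gsta4, the alpha-class transferase that detoxifies the lipid peroxidation product 4-hydroxynonenal, had the largest difference among the transferases. It was at 4.16 and 2.64 CPM with diosmin, against 6.29 and 9.34 CPM in IVS, and the groups did not overlap. Its log2 fold change was -1.20 ± 0.38 (95% interval -2.03 to -0.37), and it missed the threshold over all genes (adjusted p = 0.124), though it passed when no filter on low counts was applied (adjusted p = 0.0464). Gstm2, a mu-class transferase of muscle, had 23.4 and 27.1 CPM with diosmin, against 36.3 and 39.2 CPM in IVS, a log2 fold change of -0.58 (adjusted p = 0.168). Gstm1, its neighbour on the chromosome, had 66.5 and 80.7 CPM with diosmin, against 97.4 and 99.9 CPM in IVS (log2 -0.42, adjusted p = 0.314). Gstp1, the pi-class transferase, had 41.6 and 45.7 CPM with diosmin, against 48.5 and 79.3 CPM in IVS (log2 -0.55, adjusted p = 0.277). Gstk1, the mitochondrial and peroxisomal kappa-class enzyme, and Mgst3 were also lower in both diosmin libraries, by 0.39 and 0.42 on the log2 scale, without passing. Gstm5 and Mgst1 leaned the other way with overlapping groups (log2 0.25 and 0.27). Part of this family shares sequence: 62.3% of the 50-base windows of the longest Gstp1 transcript and 23.1% of those of Gstm1 also occur in another annotated gene, so their levels are uncertain.

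The 3 glutathione peroxidases all had lower mean values with diosmin and none passed. Gpx4 had 208 and 231 CPM with diosmin, against 272 and 354 CPM in IVS (log2 -0.51 ± 0.21, adjusted p = 0.241), with groups that did not overlap. A processed copy and another locus share 61.7% of its transcript windows, so the level of Gpx4 is uncertain too. Gpx3 had 267 and 367 CPM with diosmin, inside the 258 and 511 CPM of the IVS libraries, and without IVS replicate 2 its log2 fold change was 0.29 in place of -0.28. Gpx1, the cytosolic and mitochondrial peroxidase, had 23.4 and 27.6 CPM with diosmin, against 26.0 and 35.3 CPM in IVS.

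In the thioredoxin system, where NADPH passes through thioredoxin reductase and thioredoxin to the peroxiredoxins, none of 11 members passed, with 4 at higher and 7 at lower values (median log2 fold change -0.26). Prdx5 had 60.6 and 65.5 CPM with diosmin, against 95.0 and 86.9 CPM in IVS. The diosmin libraries were well below the IVS libraries and close to each other (log2 -0.53 ± 0.20, 95% interval -0.95 to -0.10, adjusted p = 0.183). Prdx1, the cytosolic peroxiredoxin whose promoter carries the core printed above, had 38.2 and 41.9 CPM with diosmin, against 59.7 and 51.6 CPM in IVS (log2 -0.48, adjusted p = 0.251). Txn1, the cytosolic thioredoxin, had 12.4 and 17.1 CPM with diosmin, against 20.8 and 20.1 CPM in IVS (log2 -0.46, adjusted p = 0.355). Prdx3 leaned upward, with 41.8 and 62.1 CPM with diosmin, against 41.1 and 37.6 CPM in IVS (log2 0.40, adjusted p = 0.419). Without IVS_diosmin replicate 2 its log2 fold change was 0.069. Txn2, the mitochondrial thioredoxin, had 91.4 and 89.9 CPM with diosmin, against 72.8 and 76.4 CPM in IVS (log2 0.28, adjusted p = 0.517). Txnrd2, the mitochondrial reductase, leaned downward, at 12.03 and 9.23 CPM with diosmin and 12.6 and 12.8 CPM in IVS. Prdx2 and Prdx4, peroxiredoxins of the cytosol and of the endoplasmic reticulum, had log2 fold changes of -0.26 and -0.48, and Prdx6, which also acts on phospholipids, of 0.16. Other annotated genes share 23.8% of the 50-base windows of the longest Prdx2 transcript and 10.9% of those of Prdx1, so these levels are uncertain. Prdx5 shares 19.1% of its exon length with Trmt112 on the opposite strand (mean count 308.5, beside 1115 for Prdx5), so its count is uncertain.

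None of the 4 members of the superoxide and peroxide system passed. The groups did not overlap in Cat, which was higher with diosmin, and Sod1, which was lower. Over all genes tested, 23.4% were higher and 24.1% lower without overlap. Catalase (Cat) breaks down hydrogen peroxide in peroxisomes. Cat had 38.6 and 26.7 CPM with diosmin, against 19.8 and 23.2 CPM in IVS. Both diosmin libraries were above both IVS libraries, replicate 1 most of all (log2 0.61 ± 0.23, 95% interval 0.10 to 1.12, adjusted p = 0.204). Cat and Gclc were highest in diosmin replicate 1, as were the slow fibre markers (10 genes, 9 of them called higher), which summed to 3867 and 1519 CPM with diosmin, against 88.1 and 95.2 CPM in IVS. Erythrocyte markers, which come with a cell rich in catalase, summed to 19.5 and 35.7 CPM with diosmin, against 3.95 and 18.0 CPM in IVS, with none of 4 tested markers called. The part of fibre type or blood content in the level of Cat was not tested, and in bulk tissue a change in the share of a cell type cannot be told apart from a change in RNA per cell. Sod1 had 114 and 102 CPM with diosmin, against 136 and 130 CPM in IVS, both diosmin libraries lying below both IVS libraries (log2 -0.30, adjusted p = 0.485). Sod2 had 95.3 and 104 CPM with diosmin, against 109 and 94.8 CPM in IVS, with overlapping groups and an interval of -0.47 to 0.40. Sod3, the extracellular dismutase, was low, at 2.62 and 0.902 CPM with diosmin and 1.26 and 2.68 CPM in IVS.

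The metallothioneins, small cysteine-rich proteins that bind zinc and copper and scavenge radicals, were set by 1 library. Mt1 (chromosome 8, 94179082 to 94180327, mm10) had 42.2 and 28.4 CPM with diosmin, against 33.4 and 100 CPM in IVS. Mt2 had 14.6 and 16.7 CPM with diosmin, against 9.61 and 39.4 CPM in IVS. Both genes were lower in 3 libraries and high in IVS replicate 2, which held 3.00 times the Mt1 level and 4.10 times the Mt2 level of IVS replicate 1. With all libraries the log2 fold changes were -0.92 (adjusted p = 0.504) and -0.63 (adjusted p = 0.742). Without IVS replicate 1 both were called lower (-1.51, adjusted p = 0.0114, and -1.33, adjusted p = 0.0167), and without IVS replicate 2 both had positive values (0.07 and 0.70). Srxn1, Sod3, Cyp2e1 and Gpx3 were also higher in IVS replicate 2 than in IVS replicate 1, by 2.58, 2.13, 2.13 and 1.98 times. Schwann cell markers were highest in that library as well, with the 6 genes summing to 72.01 and 127 CPM with diosmin, against 42.9 and 281 CPM in IVS. None of the 6 was called, and their part in these levels was not tested. Mtf1, the zinc-sensing factor that drives metallothionein genes, had 21.3 and 21.5 CPM with diosmin, against 27.4 and 20.3 CPM in IVS.

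Because Mt1 and Mt2 lie beside each other and were both highest in IVS replicate 2, their RefSeq promoter windows are shown with the cores of metal response elements (TGCACNC and TGCGCNC, on both strands) in capitals:
Mt1: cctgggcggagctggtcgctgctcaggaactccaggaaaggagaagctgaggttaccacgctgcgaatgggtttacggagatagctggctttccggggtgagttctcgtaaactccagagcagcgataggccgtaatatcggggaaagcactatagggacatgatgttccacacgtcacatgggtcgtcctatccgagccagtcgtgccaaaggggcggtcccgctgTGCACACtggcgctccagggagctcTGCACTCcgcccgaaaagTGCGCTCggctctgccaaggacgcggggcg
Mt2: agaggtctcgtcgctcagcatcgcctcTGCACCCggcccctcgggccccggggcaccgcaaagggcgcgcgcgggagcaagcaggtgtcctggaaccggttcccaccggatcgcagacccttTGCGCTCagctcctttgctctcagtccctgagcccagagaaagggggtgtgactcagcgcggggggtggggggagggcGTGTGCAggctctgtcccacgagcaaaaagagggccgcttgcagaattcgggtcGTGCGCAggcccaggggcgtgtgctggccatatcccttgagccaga

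The Mt1 window (chr8:94178839-94179138, plus strand) held 3 such cores, all on the strand of the gene, and the Mt2 window (chr8:94172368-94172667, plus strand) held 4, 2 on each strand. At least 1 core was found in 28.2% of all genes with a window and in 9 of 35 members, so a single match is common. The antioxidant core of Mt2, tgactcagc, stands in lower case between the metal cores. The antisense gene Gm45774 covers 73.5% of the exon length of Mt2 with a mean count of 282 beside the 271 of Mt2, so the level of Mt2 is uncertain.

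**Figure D4:**
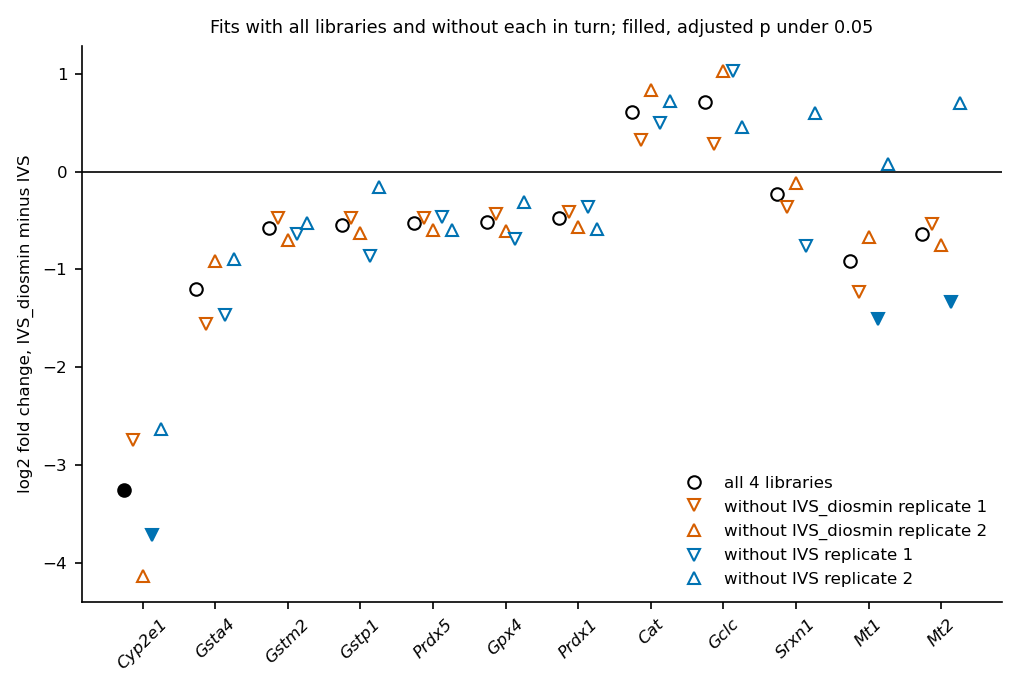
Log2 fold change of IVS_diosmin minus IVS for 12 genes with all 4 libraries and with each library left out in turn; filled symbols passed an adjusted p of 0.05. Cyp2e1 stays below -2.6 in every fit but passes in 2 of them, and Srxn1, Mt1 and Mt2 lie above 0 without IVS replicate 2.

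Cyp2e1, a cytochrome P450 that oxidises ethanol and small solvents and leaks reactive oxygen as it does so, was the member called. The gene lies at chr7:140763739-140774987 (mm10, plus strand). It had 2 and 6 counts in the diosmin libraries, against 32 and 48 in the IVS libraries, or 0.154 and 0.417 CPM with diosmin and 1.83 and 3.90 CPM in IVS. Both diosmin libraries were far below both IVS libraries, at a level close to the limit of counting. The log2 fold change was -3.26 ± 0.78 (95% interval -4.94 to -1.57, adjusted p = 0.0433), and the ratio of summed levels was 0.109 with an exact interval of 0.0454 to 0.225 that covers counting error only. It kept its call without IVS replicate 1 (adjusted p = 0.0334) and lost it without IVS replicate 2 (0.415), IVS_diosmin replicate 1 (0.272) or IVS_diosmin replicate 2 (0.0695), with log2 fold changes between -4.14 and -2.63. Liver is the main site of Cyp2e1 in the mouse and fat cells also express it. The liver markers Apoa1, Ttr and Serpina1a had no count in any library, and the 5 liver markers summed to at most 1.67 CPM. The 8 adipocyte markers summed to 225 and 195 CPM with diosmin, against 429 and 546 CPM in IVS. All 5 tested had lower values, and Fabp4 was the 1 called. Counts from bulk tissue do not show which cells the Fabp4 RNA came from. Cidec, a protein of fat cell lipid droplets, had 0.0771 and 0.625 CPM with diosmin, against 1.66 and 4.79 CPM in IVS, and was not called (adjusted p = 0.0760). Endothelial markers were lower as well, with 5 of 10 called. The part of adipocyte or endothelial content in the level of Cyp2e1 was not tested.

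The readouts of the aryl hydrocarbon receptor did not differ detectably between the groups. Cyp1a1, its most responsive target, had 6.40 and 2.22 CPM with diosmin, on either side of the 4.63 and 4.14 CPM of the IVS libraries (log2 -0.03, 95% interval -1.06 to 0.99). Tiparp, a feedback repressor of the receptor, had 6.55 and 14.5 CPM with diosmin, against 13.2 and 8.53 CPM in IVS, and the groups overlapped (log2 -0.04, 95% interval -0.88 to 0.79). Cyp1b1, another target, had too few reads to test, with 2 and 3 counts with diosmin and 2 and 18 counts in IVS, so that its IVS level rested on replicate 2. Ahr itself had 1.77 and 1.67 CPM with diosmin, against 1.54 and 1.79 CPM in IVS. The repressor gene Ahrr had 0.308 and 0 CPM with diosmin and 0 in both IVS libraries. No member's promoter window held the core TNGCGTG that the receptor binds, which 5.84% of all genes with a window hold, and this says only that these letters are not in those windows.

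Beyond the members, 138 other genes of the same pathways were listed with earlier results of these data known. Of the 117 tested, 1 rose and 1 fell, where 1.17% of all genes tested were called higher and 1.78% lower. The median log2 fold change of the 117 was -0.02. Both calls were among 20 tested NRF2 targets. Aox1, an aldehyde oxidase that turns over aldehydes and drugs and has been described as an NRF2 target in mouse, had 140 and 153 CPM with diosmin, against 55.1 and 50.4 CPM in IVS. The diosmin libraries stood far above the IVS libraries and the replicates were close (log2 1.48 ± 0.20, adjusted p = 0.00348). It was higher in every fit and missed the threshold without IVS_diosmin replicate 1 (adjusted p = 0.0522). Taldo1, the transaldolase of the pentose phosphate pathway, had 23.7 and 19.99 CPM with diosmin, against 38.0 and 43.6 CPM in IVS (log2 -0.90 ± 0.21, adjusted p = 0.0413), but its call was lost whichever library was left out (adjusted p 0.0654 to 0.277).

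No other list had a call, and the gene of smallest p in each was as follows. Of 11 tested NRF2 partners it was Maff, a small MAF protein (log2 -1.10, adjusted p = 0.192). Of 23 other glutathione genes it was Gsto1, an omega-class transferase, with 14.1 and 11.4 CPM with diosmin, against 7.89 and 6.34 CPM in IVS (log2 0.83, adjusted p = 0.148). Of 19 other thioredoxin and selenoprotein genes it was Txnip, which binds thioredoxin and blocks it. Txnip had 268 and 213 CPM with diosmin, against 616 and 370 CPM in IVS (log2 -1.03 ± 0.26, adjusted p = 0.0530). It passed with DESeq2 (adjusted p = 0.00226) and without the low-count filter (0.000170), but not without robust estimation (0.0723) or with the replicate block (0.0869). Without 1 library its log2 fold change ran between -1.36 and -0.62. Nox1, a superoxide-making oxidase, led 12 tested genes of superoxide sources (log2 -1.13, adjusted p = 0.348, with log2 fold changes of -2.04 without IVS_diosmin replicate 1 and -0.57 without IVS_diosmin replicate 2). It shares 12.1% of its exon length with Cstf2 on the opposite strand. The mean count was 161 for Cstf2 and 33 for Nox1, so the level of Nox1 is uncertain. Slc39a14, a zinc and iron importer, led 10 genes of metal and haem handling (log2 -0.68, adjusted p = 0.371, and between -1.09 and -0.13 without 1 library, -0.13 without IVS replicate 2). Cyb5r3, a reductase that feeds electrons to cytochrome b5, led 22 tested AHR, P450 and conjugation genes (log2 -0.73, adjusted p = 0.110).

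**Figure D5:**
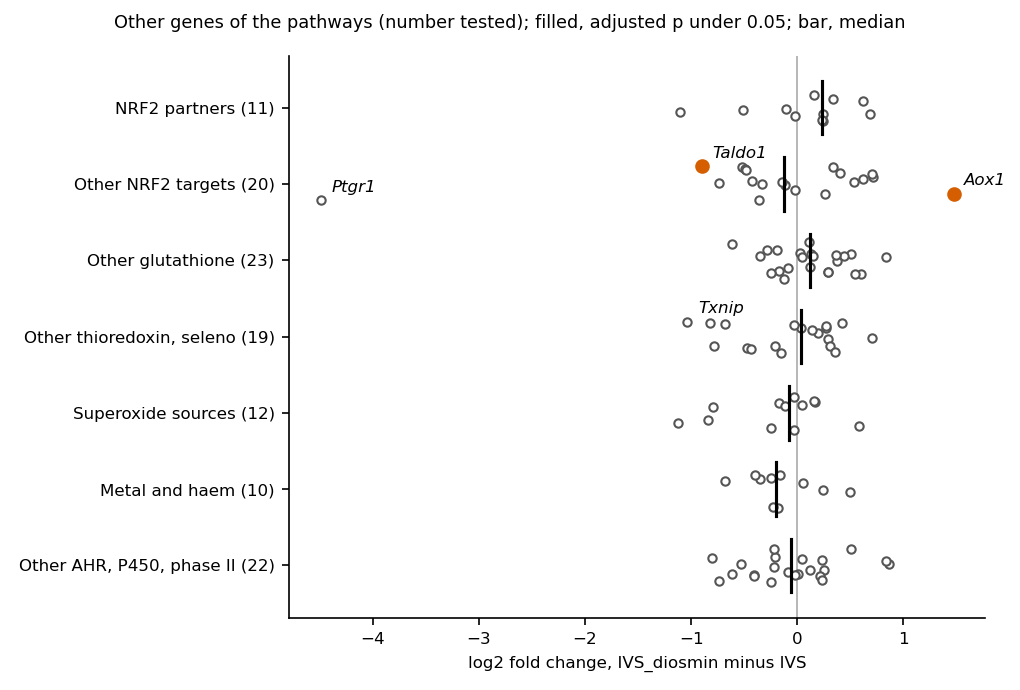
Log2 fold change of IVS_diosmin minus IVS for the 117 tested genes of the 7 other pathway lists, 1 point per gene with the list median as a bar; filled points passed an adjusted p of 0.05. Aox1 lies highest at 1.48 and Taldo1 is the filled point below 0; the leftmost point, Ptgr1, rests on 1 count over the diosmin libraries and 30 over the IVS libraries.

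Several features of the libraries moved with the groups. Reads aligned to several places made up 45.6% and 43.6% of the IVS_diosmin files, against 37.7% and 38.8% of the IVS files. Unaligned reads made up 1.50% and 1.42% of the IVS_diosmin files, against 2.75% and 2.89% of the IVS files. Gene counts ran between 13056650 and 15324354 per library. Skeletal muscle markers were abundant in all 4 (the 6 genes summed to 48642 and 51931 CPM with diosmin, against 35280 and 41873 CPM in IVS). Slow fibre markers differed most among the marker lists, with 9 of 10 called higher and a median log2 fold change of 5.45. Endothelial markers were lower with diosmin, with 5 of 10 called lower and sums of 307 and 276 CPM, against 534 and 569 CPM in IVS. Of the 40 tested members, 25 had lower values and 15 higher values. Among 4 tested RNAs of nuclear or ribosomal origin, 2 were called lower and none higher. CT010467.1, a locus of ribosomal RNA sequence, had 12394 and 9447 CPM with diosmin, against 36309 and 40325 CPM in IVS, and the nuclear RNA Rn7sk had 11.9 and 5.97 CPM with diosmin, against 34.6 and 33.5 CPM in IVS. Neat1, a nuclear long noncoding RNA, had 4971 and 3210 CPM with diosmin, against 2583 and 2299 CPM in IVS (log2 0.74, adjusted p = 0.124), and the nuclear RNA Malat1 had a log2 fold change of -0.31 with overlapping groups. The part of these features in the values of the members was not tested.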

How the data were processed

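Poly(A) RNA of mouse muscle was sequenced in 4 libraries, 2 per group. Per the labels' protocols the libraries were NEBNext Ultra, made with poly-T beads. No strand setting or annotation release is stated. Some opposite-strand neighbours of abundant muscle genes had mean counts near theirs. Ube2c had 171340 beside 188267 for Tnnc2, and A930016O22Rik had 182382 beside 236153 for Ckm. Others did not, such as Gm15179, with 195.5 beside 33031.5 for Des. Counts of genes that overlap on opposite strands are therefore uncertain, and the cause was not tested. The authors deposited unnormalised read counts for each gene of each library. HISAT2 2.1.0, HTSeq and mm10 appear in the submitters' processing notes. Genes held 24.9% and 26.3% of the reads in the IVS_diosmin files and 27.5% and 27.7% in the IVS files. The rest stood in 5 HTSeq summary lines, mostly reads aligned to several places or to no feature, and stayed out. Symbols, positions and exon lengths came from GENCODE M21 on mm10 (55141 of 55401 identifiers matched without version). Counts were tested with edgeR 4.0.16 in R 4.3.3 (filterByExpr, TMM, robust quasi-likelihood fit, IVS_diosmin minus IVS, 2-sided, Benjamini-Hochberg over 13533 genes); SE is the log2 fold change over the square root of F. Alternatives were DESeq2 1.42.0, other scalings, no filter, no robust estimation, a replicate block and leaving out each library. Members, lists and tests were chosen with earlier results of these data known; those named are all members, and per other list the called genes or the gene of smallest p. Exact permutation of 1 gene cannot go below p = 0.333 with 2 against 2. Chi-square over degrees of freedom between replicates was 19.7 (IVS_diosmin) and 28.6 (IVS), so the 2 libraries of a group did not hold the same reads counted again. Libraries of different groups were not compared in this way, and the value does not show whether replicates came from separate animals. Intervals from counts cover counting error only.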

Additional observations from a re-analysis of the deposited data

How the results depend on the processing

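Over all genes, 400 calls were made, 378 with DESeq2 size factors, 407 with upper quartile scaling, 597 with DESeq2 and 293 without robust estimation. Without a filter on low counts there were 919, and without 1 library 38 to 366 (38 without IVS_diosmin replicate 1). Replicate numbers are only shared numbers here: the deviations of same-numbered libraries had a correlation of -0.00863, and the replicate block left 93 calls. No member was called higher under any of these settings. The count of members called lower, 1 with all libraries, was 2 without the filter (Cyp2e1 and Gsta4), 0 without robust estimation, 0 with the replicate block and 0 to 3 without 1 library (3 without IVS replicate 1: Cyp2e1, Mt1 and Mt2). Cyp2e1 had an adjusted p of 0.0602 without robust estimation, 0.110 with the replicate block and 0.0184 with DESeq2. Taldo1 had 0.0579 without robust estimation and 0.141 with the replicate block. The causes were not tested. A fit without 1 library assumes that the lone library varies like the other group.

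The sign of 12 members turned when 1 library was left out, and under no other setting. Without 1 library their log2 fold changes ran between -0.49 and 0.45 for Hmox1, -0.22 and 0.69 for Gclm, -0.69 and 0.29 for Gpx3, -0.072 and 0.54 for Mgst1, and -0.76 and 0.60 for Srxn1. The ranges were -0.14 to 0.069 for Sod2, -1.10 to 0.47 for Sod3, -1.51 to 0.072 for Mt1 and -1.33 to 0.70 for Mt2. They were -0.98 to 0.52 for Cyp1a1, -0.058 to 0.15 for Ahr and -0.75 to 0.41 for Tiparp.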

Other observations

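IVS replicate 2 held the highest level of 16 of the 40 tested members and the lowest of 5, while each of the other 3 libraries was highest in 8. Over all genes tested, the IVS_diosmin libraries were highest in 24.9% and 25.5%, IVS replicate 1 in 21.3% and IVS replicate 2 in 28.3%. The members highest in IVS replicate 2 by the widest ratio to the other IVS library were Mt2 (4.10), Mt1 (3.00) and Srxn1 (2.58), while the median ratio over the members was 1.06.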
